A study of Mus musculus with 6 samples.

Results

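The expression of 6 genes best known from the germline was examined in the hippocampus of Nrf2-knockout mice. Nrf2, encoded by Nfe2l2, is a transcription factor that switches on antioxidant and detoxification genes. The genes were Stag3 (probe ASMM10P003187), Ccnb1ip1 (ASMM10P011018), Tex11 (ASMM10P044246), Tex15 (ASMM10P040307), Mael (ASMM10P052391) and Cox7b2 (ASMM10P030497). Each was read here by a single probe, 6 probes of the 60915 on the array. Any other probe of these genes had no gene name in the sources used and could not be read. The 6 genes were chosen by their known germline or testis expression from the mRNAs that the study had listed as differentially expressed. That list was selected on the same comparison of genotypes, at a fold change above 1.5 and an unadjusted p under 0.05, so the genotype differences of these 6 genes are described here and not tested.

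Hippocampal RNA came from 3 Nrf2 (+/+) and 3 Nrf2 (−/−) mice, all male, of ICR background, 3 to 4 months old and given no treatment. One group was wild type and the other carried the Nrf2 gene knockout, genotyped on tail DNA and described as Nrf2-null, with the deleted part of the gene not stated in the sources used here. Each mouse had an array of its own, an Arraystar mouse lncRNA array that also carries probes for protein-coding transcripts, hybridized with cRNA in a single dye. Slides were inferred from scan times, with arrays of the same scan time taken to share a slide. By this measure replicate 1 of both genotypes shared a slide, as did replicate 3, while the other arrays lay on separate slides.

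The targeted gene was read first. The log2 signal of the Nfe2l2 probe was 12.40, 11.93 and 12.28 in the Nrf2 (+/+) mice and 7.95, 7.82 and 8.02 in the Nrf2 (−/−) mice, a log2 difference of −4.27 (SE 0.20). The groups lay far apart, and every array followed its label. The Nrf2 (−/−) arrays were brighter before normalization, with a median spot signal of 138 to 184 against 87.7 to 109. Between 65.5% and 71.3% of the probes were well above background on the Nrf2 (+/+) arrays, and between 69.9% and 75.7% on the Nrf2 (−/−) arrays. The number of arrays, 3 per genotype, limits the precision of every value. Markers of hippocampal neurons, glia, choroid plexus and blood were not analysed here, because their probes carry no gene name in the sources used, so the tissue label was not checked against them.

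In meiosis, homologous chromosomes are held together by cohesin, cut and repaired by recombination, and joined by crossovers before they separate. Stag3 is a meiosis-specific subunit of cohesin. Ccnb1ip1, also called HEI10, is a ubiquitin-ligase family protein that turns recombination sites into crossovers, and Tex11 is an X-linked protein that promotes crossovers and chromosome pairing. Tex15 is needed for the repair of meiotic breaks and for silencing of transposons in male germ cells. Mael (maelstrom) acts with piRNAs, small RNAs that keep transposons silent in the germline. Cox7b2 is a testis-enriched relative of Cox7b, a subunit of cytochrome c oxidase, the terminal enzyme of the respiratory chain. In adult somatic tissue germline genes of this kind are mostly held silent or low, and DNA methylation of a CpG-rich promoter is a known means of silencing for many of them.

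Promoter windows were available for 4 of the 6 genes. Both higher genes with a window (Stag3, Ccnb1ip1) and both lower genes with one (Mael, Cox7b2) are printed, so that their sequence can be set beside their direction. Each window runs from 250 bases before to 50 bases after the gene's start in the RefSeq annotation of GRCm38.p6, 5′ to 3′ on the gene's own strand. Capitals mark matches, on either strand, to the E-box CACGTG, the E2F-type motif GCGGGAA (read as TTCCCGC on the opposite strand) and the NF-Y motif CCAAT (read as ATTGG). The windows lie at chr5:138280259-138280558 on the plus strand for Stag3, and on the minus strand at chr14:50795679-50795978 for Ccnb1ip1, chr1:166238695-166238994 for Mael and chr5:71548156-71548455 for Cox7b2.
Stag3: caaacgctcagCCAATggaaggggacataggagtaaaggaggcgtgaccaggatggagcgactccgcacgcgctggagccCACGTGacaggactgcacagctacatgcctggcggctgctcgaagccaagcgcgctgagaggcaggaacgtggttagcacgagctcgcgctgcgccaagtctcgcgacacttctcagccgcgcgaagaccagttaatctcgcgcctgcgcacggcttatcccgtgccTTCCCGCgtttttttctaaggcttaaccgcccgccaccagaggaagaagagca
Ccnb1ip1: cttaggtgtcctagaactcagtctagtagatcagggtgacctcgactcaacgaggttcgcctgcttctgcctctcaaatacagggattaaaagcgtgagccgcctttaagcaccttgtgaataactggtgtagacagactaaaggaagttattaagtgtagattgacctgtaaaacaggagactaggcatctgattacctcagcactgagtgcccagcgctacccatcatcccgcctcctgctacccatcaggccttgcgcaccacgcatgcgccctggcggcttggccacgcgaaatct
Mael: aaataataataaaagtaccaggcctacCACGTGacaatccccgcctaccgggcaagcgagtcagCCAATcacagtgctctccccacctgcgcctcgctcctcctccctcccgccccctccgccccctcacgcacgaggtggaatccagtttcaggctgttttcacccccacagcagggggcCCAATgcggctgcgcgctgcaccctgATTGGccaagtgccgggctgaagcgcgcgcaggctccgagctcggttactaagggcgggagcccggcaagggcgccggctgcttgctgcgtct
Cox7b2: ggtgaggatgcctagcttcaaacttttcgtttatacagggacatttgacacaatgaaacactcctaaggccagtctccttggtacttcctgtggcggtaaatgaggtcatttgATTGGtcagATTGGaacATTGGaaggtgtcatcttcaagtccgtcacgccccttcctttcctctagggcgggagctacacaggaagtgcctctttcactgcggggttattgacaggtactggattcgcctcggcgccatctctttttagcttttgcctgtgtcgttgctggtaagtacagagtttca

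All 4 windows held more CpG than the typical promoter. The ratio of observed to expected CpG was 1.06 in Stag3, 0.78 in Mael, 0.65 in Ccnb1ip1 and 0.56 in Cox7b2, against a median of 0.38 over the 32851 windows of the same length. The Stag3 window had 30 CpG sites and the Cox7b2 window 10. The first place went to Stag3, which read higher but was well above background on only 1 of 3 Nrf2 (+/+) arrays. The second went to Mael, a lower gene. With 4 windows, a relation of CpG content to direction was not tested. The core of the antioxidant response element, TGACNNNGC, to which Nrf2 binds with its partner proteins, matched in none of the 4 windows and in 12.4% of all windows. The cAMP response element TGACGTCA also had no match, against 1.79% of all windows. E-box matches lay 170 bases before the start in Stag3 and 223 bases before it in Mael, and 7.15% of all windows held this motif. The E2F-type motif, found in 4.60% of all windows, matched 3 bases before the start of Stag3. CCAAT or its reverse, present in 37.4% of all windows, occurred in Stag3, Mael and Cox7b2. The Cox7b2 window carried it 3 times, at 137, 128 and 120 bases before the start. The Mael window also carried it 3 times, at 186, 69 and 43 bases, and the Stag3 window at 239 bases alone. Ccnb1ip1 had no match to any of the 5 motifs. These matches are descriptions of the letters in the windows. The motifs do not overlap one another in these sequences.

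Detection differed among the 6 genes. Spots of Ccnb1ip1, Tex11, Tex15, Mael and Cox7b2 were well above background on all 6 arrays, whereas the Stag3 spot cleared that limit on 1 of 3 Nrf2 (+/+) arrays and on 3 of 3 Nrf2 (−/−) arrays. No spot of the 6 genes was flagged as an outlier or saturated. Cox7b2 cleared the detection limit by the widest margin, with 60.8 to 125 times the lowest signal called well above background on the same array. Ccnb1ip1 stood at 7.65 to 20.8 times that signal, Tex11 at 1.74 to 8.38 times, Mael at 1.74 to 10.3 times, Tex15 at 1.34 to 2.59 times and Stag3 at 0.49 to 2.86 times. The array's 15 negative-control probe names give another measure of background. At most 2 of them were brighter than Stag3, Tex15 or Mael on any array, at most 1 was brighter than Tex11, and none was brighter than Ccnb1ip1 or Cox7b2. Tex15 and Stag3 were therefore read close to the limit of the array, as were Mael on the Nrf2 (−/−) arrays and both Mael and Tex11 on Nrf2 (+/+) replicate 1, each at 1.74 times the limit there. Cox7b2 was read far above it. On the Nrf2 (−/−) arrays Mael stood at 1.74, 2.06 and 1.75 times the lowest signal well above background.

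**Figure D1:**
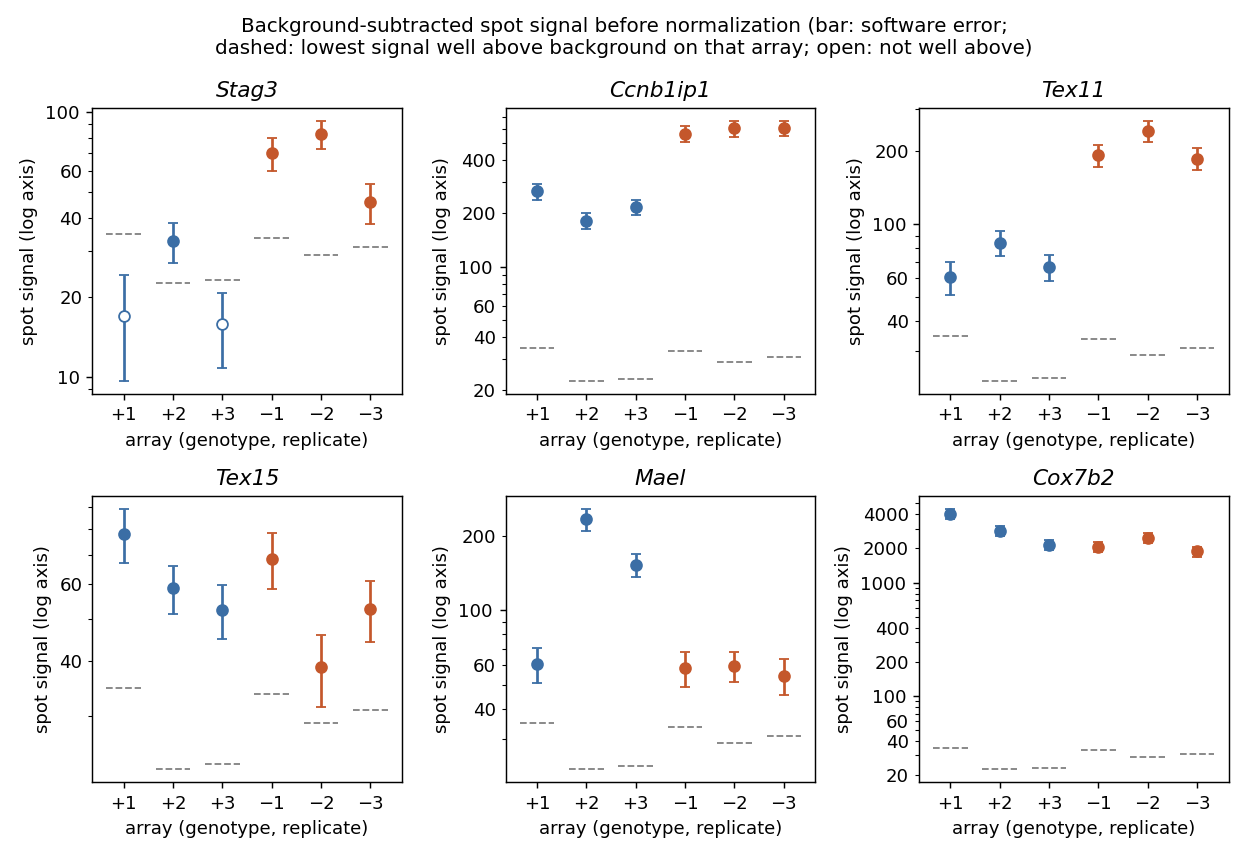
Background-subtracted spot signal of each gene's probe on each array, in scanner units on a log axis, before any normalization between arrays. Points are single spots with the error given by the extraction software, blue for Nrf2 (+/+) and orange for Nrf2 (−/−), an open point marks a spot not well above background, and the dashed line is the lowest signal well above background on that array. Stag3 has open points on 2 Nrf2 (+/+) arrays, and Tex15 and Cox7b2 overlap between the genotypes.

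After quantile normalization, Ccnb1ip1 and Tex11 were higher in the Nrf2 (−/−) hippocampus, by 1.72-fold and 1.81-fold. Stag3 also read higher, at 1.79-fold, but 2 of its 3 Nrf2 (+/+) readings were not well above background, and every difference given for it rests on them. Tex15, Mael and Cox7b2 were lower, by 2.00-fold to 3.82-fold. By measured direction the 6 genes divided into 3 higher and 3 lower, with Stag3 counted as higher under that limit. Without Stag3 the meiotic genes were still on both sides, with Ccnb1ip1 and Tex11 higher and Tex15 lower. In bulk tissue, fewer cells of a type that expresses a gene and less RNA per cell cannot be told apart. Among all 43528 tested probes, 1.25% were higher and 2.66% lower at a fold change above 1.5 and an unadjusted p under 0.05 (limma). Scaling the arrays to a common 75th percentile instead of by quantiles turned the 544 higher and 1156 lower probes into 1003 and 976. All 6 genes passed those limits, in limma and in the methods' t-test, as the way they were chosen made likely, and nothing is read from that. None was among the 21 probes (0.0482%) with a Benjamini-Hochberg adjusted p under 0.05 in limma, nor in any of the alternatives run.

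**Figure D2:**
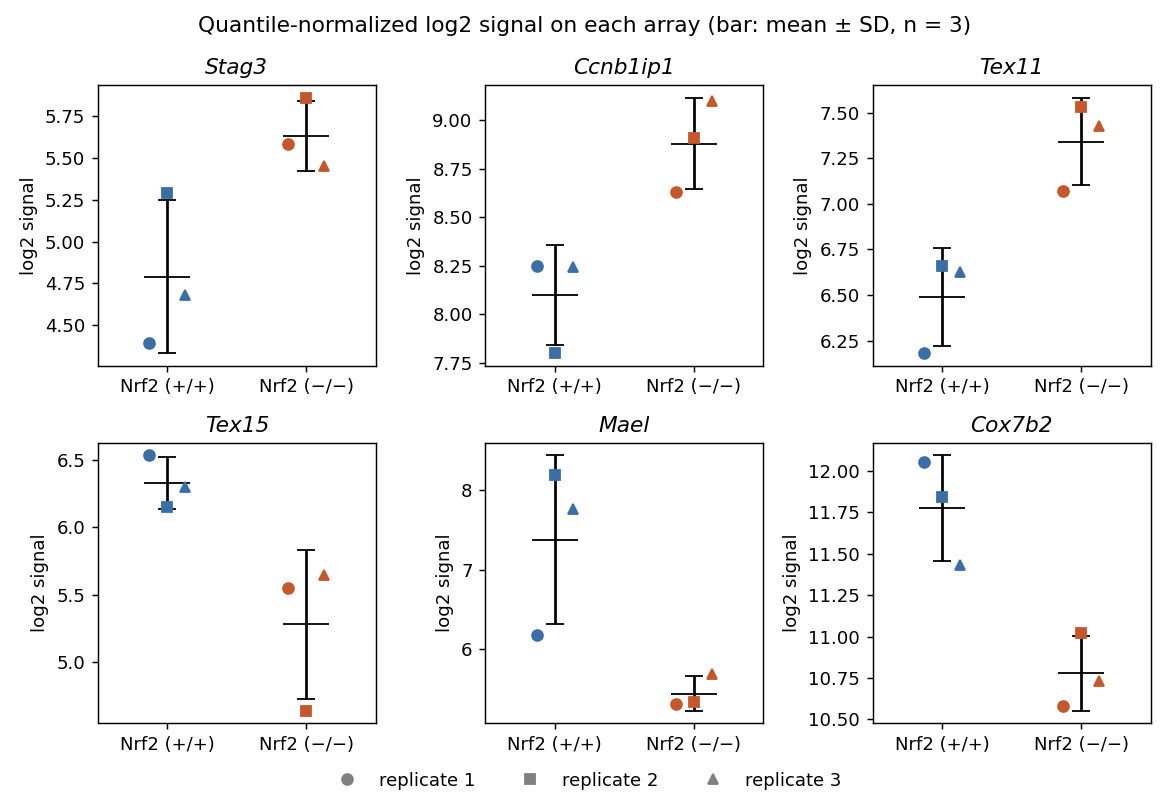
Quantile-normalized log2 signal of each gene's probe on each of the 6 arrays, with a scale of its own per gene. Points are arrays with a shape per replicate number, blue for Nrf2 (+/+) and orange for Nrf2 (−/−), and bars are mean ± SD (n = 3). Stag3, Ccnb1ip1 and Tex11 are higher and Tex15, Mael and Cox7b2 lower in Nrf2 (−/−), with no overlap of the groups and the widest spread for Mael in Nrf2 (+/+).

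Stag3 had log2 signals of 4.40, 5.29 and 4.68 in the Nrf2 (+/+) mice and 5.58, 5.86 and 5.45 in the Nrf2 (−/−) mice. All Nrf2 (−/−) arrays were above all Nrf2 (+/+) arrays, but the highest Nrf2 (+/+) array came within 0.16 of the lowest Nrf2 (−/−) array. The mean went from 4.79 ± 0.46 to 5.63 ± 0.21 (SD, n = 3), a measured log2 difference of 0.84 (SE 0.27). Since only 1 Nrf2 (+/+) array measured Stag3 well above background, the Nrf2 (+/+) mean is in part a reading at the limit of detection, and with the 75th percentile shift Nrf2 (+/+) replicate 2 and Nrf2 (−/−) replicate 3 overlapped.

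Ccnb1ip1 was at 8.25, 7.80 and 8.25 in Nrf2 (+/+) and at 8.63, 8.91 and 9.10 in Nrf2 (−/−). The groups did not overlap, and the spread was alike in both. The mean was 8.10 ± 0.26 in Nrf2 (+/+) and 8.88 ± 0.24 in Nrf2 (−/−), a log2 difference of 0.78 (SE 0.23). Of the 6 genes this one lay nearest to the fold limit, which is 0.58 on the log2 scale. Probes just outside that limit carry no gene name here, so none can be set beside it.

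Tex11 stood at 6.18, 6.66 and 6.63 in Nrf2 (+/+) and at 7.07, 7.53 and 7.43 in Nrf2 (−/−). Here too every Nrf2 (−/−) array was above every Nrf2 (+/+) array, with a gap of 0.41 between the groups. The mean went from 6.49 ± 0.27 to 7.34 ± 0.24, a log2 difference of 0.85 (SE 0.23). The difference was 3.19 times the larger of the group SDs, the highest such ratio of the 6 genes.

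Tex15 gave 6.53, 6.15 and 6.30 in Nrf2 (+/+) and 5.55, 4.64 and 5.65 in Nrf2 (−/−). The Nrf2 (+/+) arrays lay close together, and Nrf2 (−/−) replicate 2 was lower than the other Nrf2 (−/−) arrays. The mean went from 6.33 ± 0.19 to 5.28 ± 0.55, a log2 difference of −1.05 (SE 0.30).

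Mael was at 6.18, 8.19 and 7.77 in Nrf2 (+/+) and at 5.31, 5.33 and 5.69 in Nrf2 (−/−). The Nrf2 (−/−) mice were alike, while Nrf2 (+/+) replicate 1 lay far below the other Nrf2 (+/+) mice and only 0.49 above the highest Nrf2 (−/−) array. The mean went from 7.38 ± 1.06 to 5.45 ± 0.21, a log2 difference of −1.93 (SE 0.48). Mael had both the largest difference and the largest spread of the 6 genes. Its spot sits in the first row of the array, at column 8. Nrf2 (+/+) replicate 1 was 1.79 below the mean of Nrf2 (+/+) replicates 2 and 3 for Mael, while the median of the same quantity over its 43 neighbouring probes was −0.0036. The part of the spot's position in that reading was not tested.

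Cox7b2 had log2 signals of 12.06, 11.84 and 11.43 in Nrf2 (+/+) and 10.58, 11.02 and 10.73 in Nrf2 (−/−). The groups were separate, with a gap of 0.41. The mean went from 11.78 ± 0.32 to 10.78 ± 0.22, a log2 difference of −0.998 (SE 0.24).

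The separation of the genotypes depended on the normalization for 2 of the 3 lower genes. The spot signals of Cox7b2 were 4051, 2842 and 2154 in Nrf2 (+/+) and 2075, 2498 and 1887 in Nrf2 (−/−), and those of Tex15 were 78.0, 58.7 and 52.3 against 68.4, 38.8 and 52.6. In both genes the groups overlapped at this stage. Mael kept apart narrowly, at 60.7, 234 and 153 against 58.4, 59.5 and 54.3. The 3 higher genes did not overlap before normalization either. The share of all probes that were separate at this stage was not counted. Without normalization 18399 of the 43528 tested probes passed the limits on fold and unadjusted p (limma) as higher, so nothing is read from this separation. Ccnb1ip1 was at 266, 181 and 217 against 562, 603 and 607, and Tex11 at 60.7, 84.0 and 66.5 against 193, 243 and 186, both with a wide gap. Stag3 was at 17.0, 32.6 and 15.8 against 70.0, 82.9 and 45.7, and its gap, between 32.6 and 45.7, was narrower than for the other two. Over all tested probes the median log2 difference before normalization was 0.62. Relative to that median, the unnormalized log2 differences were 1.02 for Stag3, 0.81 for Ccnb1ip1, 0.94 for Tex11, −0.88 for Tex15, −1.80 for Mael and −1.07 for Cox7b2. The direction of each gene was thus the same once the brightness of the arrays was taken off by either means. After quantile normalization, none of the 6 genes overlapped between the genotypes, where 4.23% of the tested probes were separate and higher in Nrf2 (−/−) and 6.19% separate and lower. The way the genes were listed made their separation likely, and nothing is read from it.

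The log2 differences were also read within the slides that held an array of each genotype. Since no gene overlapped between the genotypes after quantile normalization, their directions were fixed beforehand, and only the sizes are described. On the slide of replicate 1 and on that of replicate 3, in this order, the log2 difference was 1.19 and 0.77 for Stag3, 0.38 and 0.86 for Ccnb1ip1, and 0.89 and 0.80 for Tex11. Stag3 was not well above background on the Nrf2 (+/+) array of either slide, so its pair of values rests on readings below that limit. The log2 difference was −0.98 and −0.65 for Tex15, −0.87 and −2.07 for Mael, and −1.48 and −0.70 for Cox7b2. Tex11 differed least between the slides and Mael most. For a further split, 2 sessions were defined here by the hour of scanning, which is no labelled batch. The first held Nrf2 (+/+) replicate 1 with Nrf2 (−/−) replicates 1 and 2, and the second held the rest. Within the first and the second session the differences were 1.33 and 0.46 for Stag3, 0.52 and 1.08 for Ccnb1ip1, 1.12 and 0.78 for Tex11, −1.43 and −0.58 for Tex15, −0.86 and −2.28 for Mael, and −1.25 and −0.90 for Cox7b2. Here too the directions could not differ, as the groups did not overlap. These pairs of values come from 1 to 2 mice a genotype and carry no test.

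**Figure D3:**
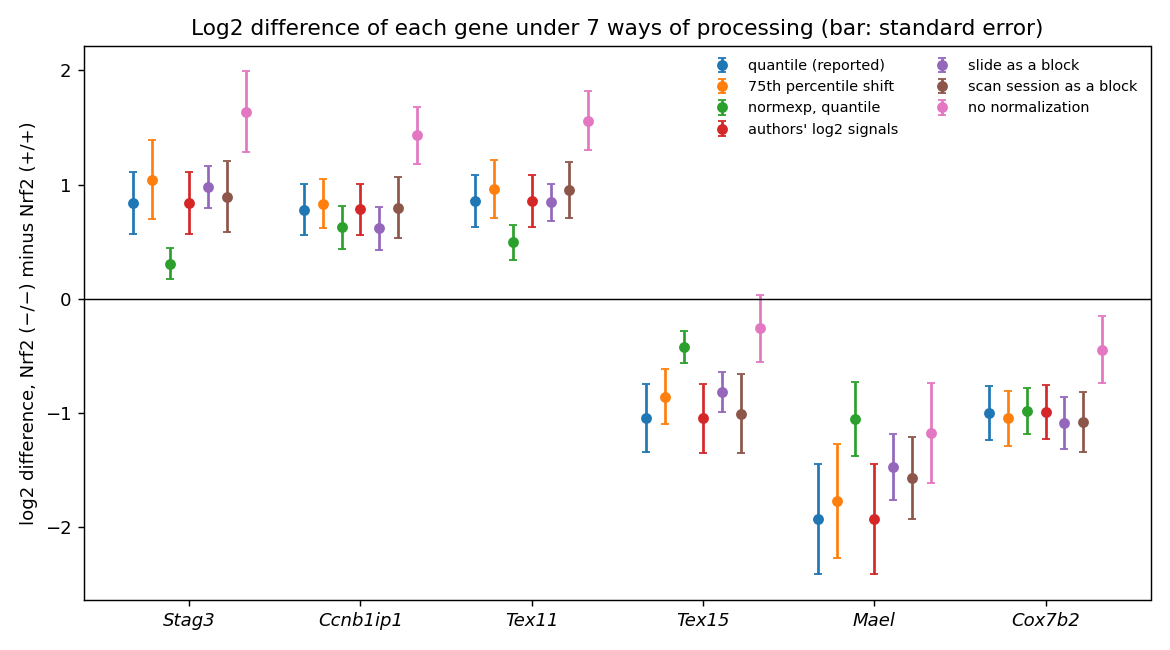
Log2 difference between Nrf2 (−/−) and Nrf2 (+/+) of each gene's probe (vertical axis), with genes along the horizontal axis. Points are estimates under 7 ways of processing, a colour each, with their standard errors as bars, and values above 0 are higher in Nrf2 (−/−). Under all 7, Stag3, Ccnb1ip1 and Tex11 lie above 0 and Tex15, Mael and Cox7b2 below 0, with normexp nearest to 0 for Stag3 (0.31) and Tex11 (0.49), and no normalization nearest for Tex15 (−0.26).

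Background correction changed the size of the difference most for the genes read near background. With normexp correction, which compresses signals near background, the log2 difference was 0.31 for Stag3, 0.49 for Tex11, −0.42 for Tex15 and −1.06 for Mael, all closer to 0. Ccnb1ip1 and Cox7b2, whose spots lay further above background, moved less, to 0.63 and −0.99. Leaving out each mouse in turn gave log2 differences of 0.65 to 1.09 for Stag3, 0.63 to 0.91 for Ccnb1ip1, 0.70 to 0.99 for Tex11, −1.23 to −0.73 for Tex15, −2.53 to −1.53 for Mael and −1.17 to −0.86 for Cox7b2. Since no gene overlapped between the genotypes after quantile normalization, leaving out a mouse could not change a direction. Nothing is read from the directions here.

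Whether the genes moved together was read within each genotype, from each array's deviation from its genotype's mean. The p by which the genes were listed also depends on this spread, so the deviations are not independent of their choice. The number of genes above that mean was 3, 4 and 3 of 6 on the Nrf2 (+/+) arrays and 1, 4 and 4 of 6 on the Nrf2 (−/−) arrays. No array had all 6 genes on one side. Mael in Nrf2 (+/+) replicate 1, at −1.20, and Tex15 in Nrf2 (−/−) replicate 2, at −0.64, were the lowest deviations. In the first of these mice Tex15 was at 0.20 and Cox7b2 at 0.28, although the spots around Tex15 were also bright there. Nrf2 (+/+) replicate 1 lay 0.31 above the mean of the other Nrf2 (+/+) mice for Tex15, and 0.24 above it in the median of its 94 neighbouring probes. In the second mouse Mael was at −0.11 and Cox7b2 at 0.24. The lowest Nrf2 (+/+) mouse was replicate 1 for Mael, replicate 2 for Tex15 and replicate 3 for Cox7b2. In Nrf2 (+/+), Tex11 and Mael, a higher and a lower gene, had replicate 2 the highest and replicate 1 the lowest, and Ccnb1ip1 had replicate 2 the lowest. Stag3 also read highest in replicate 2, the only Nrf2 (+/+) array on which it was well above background, so the order of its other readings says nothing. In Nrf2 (−/−) the lowest array was replicate 1 for Ccnb1ip1, Tex11, Mael and Cox7b2, replicate 2 for Tex15 and replicate 3 for Stag3. Nrf2 (−/−) replicate 1 was below the mean for Stag3, Ccnb1ip1 and Tex11 together, and for Mael and Cox7b2 as well. With 3 mice a genotype these orders are descriptions and were not tested.

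**Figure D4:**
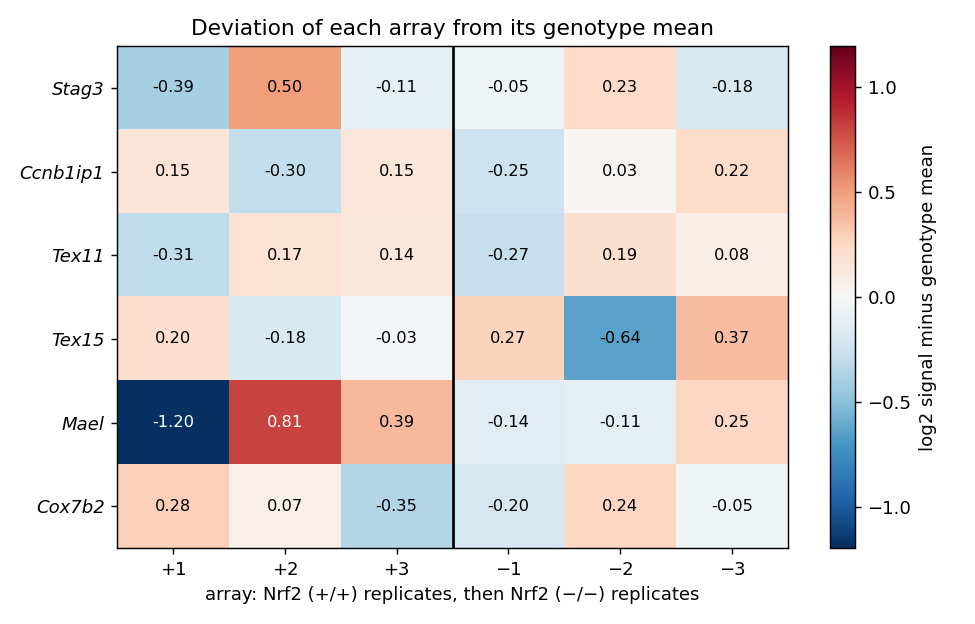
Deviation of each gene's log2 signal from the mean of its genotype on each array, with genes in rows, arrays in columns (+ for Nrf2 (+/+), − for Nrf2 (−/−), with the replicate number) and colour from blue (below the mean) to red (above it). Mael in Nrf2 (+/+) replicate 1 (−1.20) and Tex15 in Nrf2 (−/−) replicate 2 (−0.64) stand lowest, and no array has all 6 genes above or below the mean.

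Likeness of pattern was measured as the Euclidean distance between log2 signals centred on each probe's mean, over the 6 arrays. Much of such a distance reflects the genotype difference by which the genes were listed. Ccnb1ip1 and Tex11 were at 0.70 from each other. Distances of Stag3 are not given, because 2 of its 6 readings were not well above background. Tex15 and Cox7b2 were at 1.16, and Mael was at 2.18 from Tex15 and 2.19 from Cox7b2. Among the 689 probes with a gene or transcript name, all from the study's lists, Chia1 was nearest to Ccnb1ip1 at 0.099, followed by Emr1 at 0.17. Nme9 (0.22) and Ninj2 (0.23) were nearest to Tex11. Mfap3l (0.25) and the lncRNA Gm11896 (0.30) were nearest to Cox7b2, and the lncRNAs uc.84 (0.21) and AK036686 (0.28) to Tex15. Mael had no close neighbour, with Olfr961 at 0.99 and AK042774 at 1.14.

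Other germline genes could be read only where the study had listed them for the same contrast, so they are no independent evidence of a direction. Of 103 genes in 4 lists, covering the meiotic chromosome axis, meiotic recombination, the piRNA pathway and sperm, 5 of the 6 genes described here and 5 others could be named. Of those 5 others, 3 (Sgol2, Ccdc36 and Tssk1) were well above background on all arrays of both genotypes. Cyct and Mei4 were well above background in a single genotype, so that passing the filter on dim probes and their direction go together. Cyct, the testis form of cytochrome c, whose gene lies on the same chromosome as Nfe2l2, was well above background on all 3 Nrf2 (+/+) arrays and on none of the Nrf2 (−/−) arrays, at least 6.99-fold lower. Sgol2, which protects centromeric cohesin, went from 5.84 ± 0.15 to 4.95 ± 0.40, a log2 difference of −0.89 (SE 0.25). Ccdc36, a partner of the meiotic break machinery, differed by −0.86 (SE 0.20), and Tssk1, a testis-specific kinase, by −0.68 (SE 0.23). Mei4, which is needed to form meiotic breaks, was called well above background by 0 of 3 Nrf2 (+/+) arrays and 3 of 3 Nrf2 (−/−) arrays, and no fold is given. On the axis, the cohesin subunit Stag3 read higher, and the cohesin protector Sgol2 was lower. Stag3 cleared the detection limit in only 1 Nrf2 (+/+) mouse but in all 3 Nrf2 (−/−) mice. For Stag3, too, passing the filter on dim probes is tied to direction, so no contrast with Sgol2 is drawn. In recombination, Ccnb1ip1 and Tex11 were higher, Tex15 and Ccdc36 were lower, and Mei4 was detected in Nrf2 (−/−) alone. The defining markers of germ cells and spermatids (Ddx4, Dazl, Prm1, Prm2, Tnp1 and Tnp2) were not analysed here, for want of a probe name.

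Of the cell type marker lists, 3 of 8 genes of motile cilia, which ependymal cells share with sperm, and a striatal receptor could be named. Tmem212 was at 9.03, 7.64 and 8.77 in Nrf2 (+/+) and at 9.39, 10.42 and 10.21 in Nrf2 (−/−), with a log2 difference of 1.53 (SE 0.42). Tekt1 was called well above background by 0 of 3 Nrf2 (+/+) arrays and 3 of 3 Nrf2 (−/−) arrays, and Tekt4 differed by −0.67 (SE 0.19) on the log2 scale. Tmem212 was thus higher and Tekt4 lower, while Tekt1 passed the filter on dim probes through Nrf2 (−/−) alone. These genes could be named only because the study had listed them for this contrast. Their directions say nothing of the other ciliary genes. Drd2, a dopamine receptor abundant in striatum and named in the same way, was higher by 0.77 (SE 0.26). Emr1, a gene of macrophages and microglia that was on none of these lists and lay near Ccnb1ip1 in pattern, also had a log2 difference of 0.77. Their part in the values of the 6 genes was not tested.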

How the data were processed

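The samples were hippocampi of 3 Nrf2 (+/+) and 3 Nrf2 (−/−) mice, 1 array each. The authors deposited spot intensities from Agilent Feature Extraction 11.0.1.1 (background-subtracted, not normalized between arrays) and quantile-normalized log2 signals made in GeneSpring. The probe design follows mm9. Here, outlier spots (16 to 91 per array) were left out, log2 signals were averaged over 60915 probes and quantile normalized, and the 43528 probes that 3 or more of 6 arrays called well above background were tested with limma 3.58.1 (R 4.3.3, Benjamini-Hochberg adjustment). These values differed from the deposited log2 signals by a median of 0.00097. Python 3.11.15 did the rest, with pandas 2.3.3 and numpy 2.4.6 for tables and matplotlib 3.10.9 for figures, and the fit was tested on simulated data.

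The deposited files name no gene for these probes. Names came from matching fold and p computed from the authors' signals to the study's lists, used only as a key (412 of 412 mRNA entries met 1 probe each at a relative tolerance of 0.0001). The members and gene lists were chosen with earlier results of these data known. The genes named are the 6 genes, listed genes past the limits and the 2 nearest patterns per gene (none given for Stag3, which was partly below detection). Normexp (offset 50) used the median spot signal in place of the planned mean signal. The labels do not state that replicate numbers pair the mice, so the main fit was unpaired. Over 43366 probes, the deviations of same-numbered arrays of the 2 genotypes correlated at −0.15, 0.43 and 0.81. Those of differently numbered arrays correlated at −0.67 to 0.23. Whether the mice were paired was not tested.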

Additional observations from a re-analysis of the deposited data

How the results depend on the processing

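The direction of all 6 genes was the same under every alternative in which they were fitted. Alternatives on the main quantile-normalized values, such as leaving out a mouse or adding a block, could not reverse it, as no gene overlapped. Stag3 was not fitted under the filter for probes well above background on all 6 arrays. Without normalization between arrays, the log2 difference was 1.64 for Stag3, 1.43 for Ccnb1ip1, 1.56 for Tex11, −0.26 for Tex15 and −0.45 for Cox7b2. With normexp background correction it was 0.31 for Stag3, 0.49 for Tex11, −0.42 for Tex15 and −1.06 for Mael. By the study's limits on fold and unadjusted p, 3 of the 6 genes remained past the limits with normexp (not Stag3, Tex11 and Tex15) and 4 of 6 without normalization (not Tex15 and Cox7b2). Without Nrf2 (+/+) replicate 1 or 3 it was 5 of 6 (not Stag3). The counts over all probes moved far more, from 544 higher, 1156 lower and 21 with an adjusted p under 0.05 (limma, Benjamini-Hochberg adjustment). Higher probes numbered 1003 after the 75th percentile shift, 226 with normexp, 362 among probes well above background on all 6 arrays, 286 by the methods' t-test and 18399 without normalization. Lower probes numbered 643 with normexp and 225 without normalization. Adjusted calls numbered 9 without the filter on dim probes, 9 with the filter on all 6 arrays, 52 without normalization and 0 by the methods' t-test, which gave 2535 probes at an unadjusted p under 0.05. With the slide as a block the counts were 2299 higher, 2607 lower and 568 adjusted. Leaving out each mouse gave 353 to 2371 higher, 777 to 2011 lower and 8 to 195 adjusted calls. The highest counts came without Nrf2 (+/+) replicate 2 (2371 higher, 2011 lower) and without Nrf2 (−/−) replicate 2 (195 adjusted), and the lowest without Nrf2 (+/+) replicate 3 (353 higher) and Nrf2 (+/+) replicate 1 (8 adjusted). Without Nrf2 (−/−) replicate 1 there were 908 higher probes, without Nrf2 (−/−) replicate 3 818 higher and 12 adjusted, and without Nrf2 (+/+) replicate 3 10 adjusted. The cause of these shifts was not tested.

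The replicate block left the estimates of the 6 genes as they were (0.84 for Stag3 and −1.93 for Mael) and gave 1235 higher, 1386 lower and 0 adjusted calls, with 7090 probes at an unadjusted p under 0.05. The scan session as a block and the omission of normalization were chosen after seeing the data. The planned count over germline-list probes was not run, because only genes the study had listed could be named. Of the 6 genes, Stag3 and Tex15 were read closest to background, down to 0.49 and 1.34 times the lowest signal well above it. Which limit weighs most was not compared.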
